A study of Mus musculus with 35 samples.

Results

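CD8 T cells of the liver that carry the chemokine receptor CXCR6 were compared across all genes between mice fed ND and mice fed CD-HFD. The comparison took the 5 CD-HFD and 6 ND columns named for the liver CXCR6pos fraction, 11 of the 34 columns of the count table that match a sample. CD-HFD is, in this field, a choline-deficient high-fat diet that produces fatty liver with inflammation, and ND a normal diet. All mice were of the C57BL/6 strain and 13 months old. Cells were sorted straight into lysis buffer, and bulk libraries were made from the 3′ ends of polyadenylated RNA. Further fractions of the same design served for reference, liver CD8 T cells without CXCR6 (CXCR6neg) and spleen CD8 T cells without the chemokine receptor CX3CR1 (CX3CR1neg). The labels do not say that replicates came from separate mice, nor whether mice were pooled, so every p-value reflects how far these samples scatter, which may be technical. They do not name the sort markers beyond the fraction names either.

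Memory CD8 T cells divide into cells that recirculate through blood and lymphoid organs and cells that stay in a tissue. CXCR6 binds the ligand CXCL16, which liver sinusoidal cells display, and it marks CD8 T cells that stay in the liver. When antigen persists, CD8 T cells raise inhibitory receptors such as PD-1 and the transcription factor TOX, a state called exhaustion, whereas TCF1, the product of Tcf7, maintains self-renewing cells and KLF2 drives the receptors for exit from tissue.

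Total counts ran from 15633 to 494700 in the 6 ND libraries and from 57168 to 369055 in the 5 CD-HFD libraries. ND replicate 1 (15633 counts) and CD-HFD replicate 5 (57168 counts) were the shallowest, and a gene with no count there may still have been present. Levels below are in CPM, a gene's count relative to its library's total, scaled by the trimmed mean of M-values (TMM), which corrects for library composition. Since 1 count in ND replicate 1 equals about 49.2 CPM, values of 0 and 49.2 in that library differ by a single count. Its TMM factor was 1.371, against 0.9477 to 1.041 in the other CXCR6pos libraries, which lowers all its CPM values. Differences are log2 fold changes of CD-HFD over ND with their standard error (SE), and p-values were adjusted over the 6174 genes that passed the filter on low counts.

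The CD8 label held in all 11 libraries. Cd8a, which codes for the alpha chain of the CD8 coreceptor, lay between 1320 and 1720 CPM in CD-HFD and between 739 and 1680 in ND (median 1390), and did not pass the test (0.04 ± 0.11, adjusted p = 0.891). Cd8b1, the beta chain, did not either (-0.12 ± 0.10, adjusted p = 0.571). Cd3e, a chain of the T cell receptor complex, rose from 1100 ± 211 CPM (SD, n = 6) to 1890 ± 140 (n = 5), with no overlap (0.73 ± 0.10, adjusted p = 2.82e-09). Cxcr6 itself was at 573, 601, 803, 776 and 867 CPM in CD-HFD replicates 1 to 5 and between 201 and 812 in ND (median 499). The groups overlapped and the gene did not pass (0.40 ± 0.30, adjusted p = 0.496). ND replicates 1, 2 and 6 held 295, 450 and 201 CPM of Cxcr6, no more than the highest CXCR6neg library (450 CPM).

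Markers of other cells were low but not the same in every library. The defining genes Cd4 and Foxp3 of other T cells had 3 and 1 counts over all 11 libraries, and Ncr1 of NK cells and Clec4f of Kupffer cells had 0. The library labelled ND CXCR6pos replicate 6 stood apart. Its 16 plasmacytoid dendritic cell markers summed to 1940 CPM, against 197 to 345 in the other ND libraries and 253 to 330 in CD-HFD. Its 18 B cell markers summed to 2290 CPM, against 481 to 1030 and 424 to 871, while Cd79a, a defining gene of B cells, had 3 counts over all 11 libraries. Siglech, a lectin of plasmacytoid dendritic cells, reached 133 CPM in ND and 12.4 in CD-HFD. Hepatocyte markers summed to 89.9 to 345 CPM in ND and 40.4 to 172 in CD-HFD, and endothelial markers to 28.9 to 148 and 17.7 to 30.4. Erythroid markers, mainly globins, summed to 2270 to 6100 CPM in ND and 3670 to 10600 in CD-HFD. In bulk samples such as these, fewer cells of a type and less RNA per cell cannot be told apart. The part of other cells in the results below was not tested. A value without ND replicate 6 shows only how far a result rests on that library, since leaving out any library also removes a sample.

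**Figure D1:**
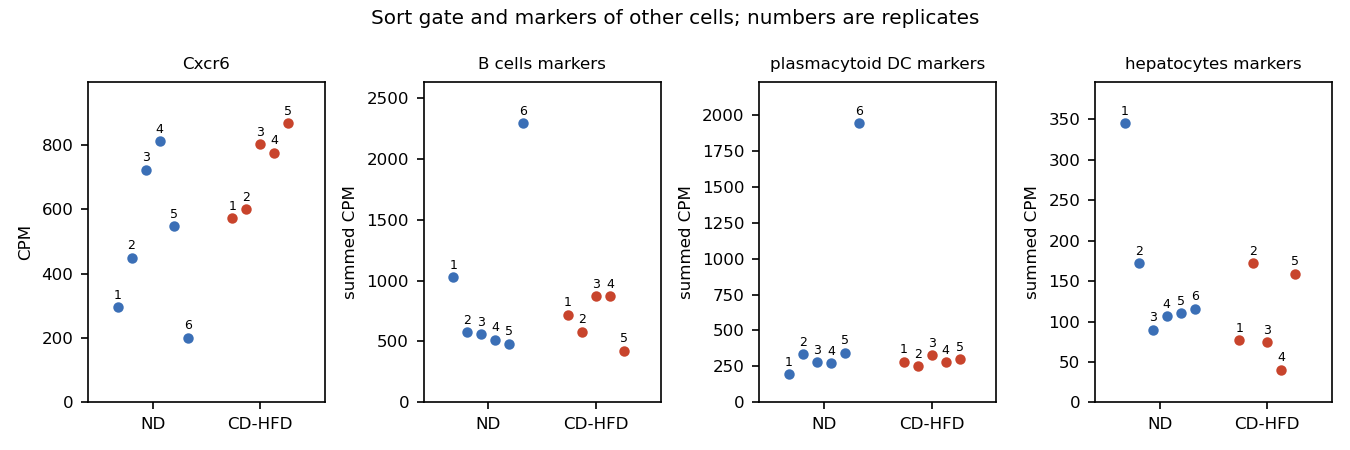
Level of Cxcr6 (CPM) and summed levels of B cell, plasmacytoid dendritic cell and hepatocyte markers (summed CPM) in each liver CXCR6pos library, with the replicate number above each point (blue ND, red CD-HFD). ND replicate 6 has the lowest Cxcr6 (201 CPM) and the highest B cell (2290) and plasmacytoid dendritic cell (1940) sums.

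With CD-HFD, 299 of 6174 genes rose (4.84%) and 398 fell (6.45%), while 1320 genes had an unadjusted p under 0.05. At least 2-fold, 131 rose and 179 fell, and at least 4-fold, 36 rose and 61 fell. Over all tested genes the median change was 0.00 on the log2 scale, and each list below is to be read against that median and those shares. The 5 and 6 libraries of the diets did not overlap in 278 genes (4.5% of those tested), of which 241 also passed the test. When each of the 11 libraries was left out in turn, 391 of the 697 calls held every time, 168 of them higher and 223 lower. Without ND replicate 6, 229 of the 299 and 326 of the 398 calls remained. Over the 11 libraries left out in turn, these numbers ran from 217 to 292 and from 294 to 393. Genes are named below mostly from those 391.

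**Figure D2:**
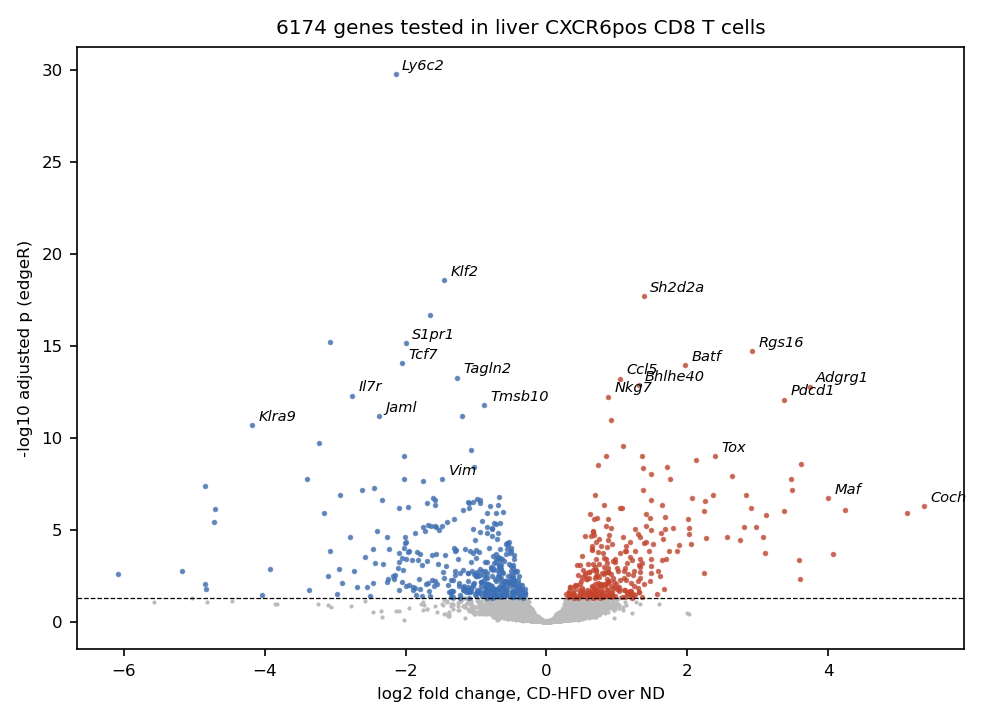
Each point is one of the 6174 genes tested, placed by its log2 fold change of CD-HFD over ND (horizontal) and the -log10 of its adjusted p (vertical), with the 299 genes that rose in red, the 398 that fell in blue and the threshold of 0.05 as a dashed line. Ly6c2, Klf2 and Sh2d2a have the smallest adjusted p-values among the labelled genes, and Coch the largest rise.

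Inhibitory receptors rose. These are surface proteins that dampen T cell activation when they meet their ligands. Of 15 tested, 9 rose and 1 fell, with a median log2 fold change of 1.38, and 7 of the 9 rises held without each library. Pdcd1, which codes for PD-1, was at 508, 446, 566, 545 and 601 CPM in CD-HFD and between 19.4 and 76.9 in ND (median 59.7). The lowest CD-HFD library thus lay far above the highest ND library (3.38 ± 0.25, adjusted p = 8.25e-13). Havcr2, which codes for TIM-3, was at 35.4, 40.5, 149, 127 and 159 CPM against 0 to 12.6 in ND (median 6.30; 3.62 ± 0.46, adjusted p = 2.74e-09). Its groups did not overlap, and CD-HFD replicates 1 and 2 were the lower ones within the diet. Tigit, a receptor for the nectin CD155, was at 154, 118, 193, 251 and 124 CPM against 0 to 35.5 (median 19.1; 3.12 ± 0.41, adjusted p = 1.54e-06). Ctla4, which competes with CD28 for its ligands, was at 177, 216, 492, 415 and 301 CPM against 0 to 45.0 (median 30.5; 3.47 ± 0.35, adjusted p = 1.70e-08). Both pairs of groups were apart. Lag3, a ligand of MHC class II, rose from 8.39 ± 5.37 to 66.1 ± 51.1 CPM (2.84 ± 0.43, adjusted p = 1.36e-07) and overlapped, the shallow CD-HFD replicate 5 being at 0. The ectoenzymes of this list, Entpd1 (CD39, which degrades ATP; 1.71 ± 0.22, adjusted p = 3.95e-09) and Cd38 (which degrades NAD; 1.38 ± 0.27, adjusted p = 5.36e-05), rose with no overlap. Btla, an inhibitory receptor that binds HVEM, went the other way, with 3 counts over the CD-HFD libraries and 30 over ND. Scaled for the TMM-adjusted library totals, the ratio of ND to CD-HFD was 6.20 (95% exact interval 1.93 to 31.7, counting error only). Cd160 (0.07), Cd244a (0.28), Vsir (0.03), Lair1 (-0.56) and Cd274 (-0.16) did not pass.

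Among costimulatory receptors, which amplify the T cell receptor signal, rises were more frequent than falls. Of 14 tested, 7 rose and 1 fell (median 0.54), and 6 of the 7 held without each library. Tnfrsf9, which codes for 4-1BB, was at 17.7, 70.9, 149, 121 and 106 CPM in CD-HFD and between 0 and 32.4 in ND (median 3.77; 2.80 ± 0.44, adjusted p = 7.44e-06). CD-HFD replicate 1 fell inside the ND range. Tnfrsf4 (OX40) was at 59.1, 47.3, 156, 199 and 53.1 CPM against 0 to 19.3 (median 7.59; 3.59 ± 0.69, adjusted p = 0.00045), without overlap. Icos (1.64 ± 0.26, adjusted p = 4.77e-07), Cd27 (1.08 ± 0.13, adjusted p = 2.92e-10), Tnfrsf18 (GITR; 0.91 ± 0.16, adjusted p = 8.40e-06) and Cd28 (0.87 ± 0.17, adjusted p = 3.50e-05) rose without overlap as well. Cd226 (DNAM-1), which shares the ligand CD155 with TIGIT, was the one that fell, from 109 ± 65.8 to 26.7 ± 16.7 CPM with overlap (-2.02 ± 0.28, adjusted p = 1.70e-08). Cd2 (0.28, adjusted p = 0.106; 0.0156 without CD-HFD replicate 5) and Cd48 (-0.03, adjusted p = 0.948) were among the 6 that did not pass.

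**Figure D3:**
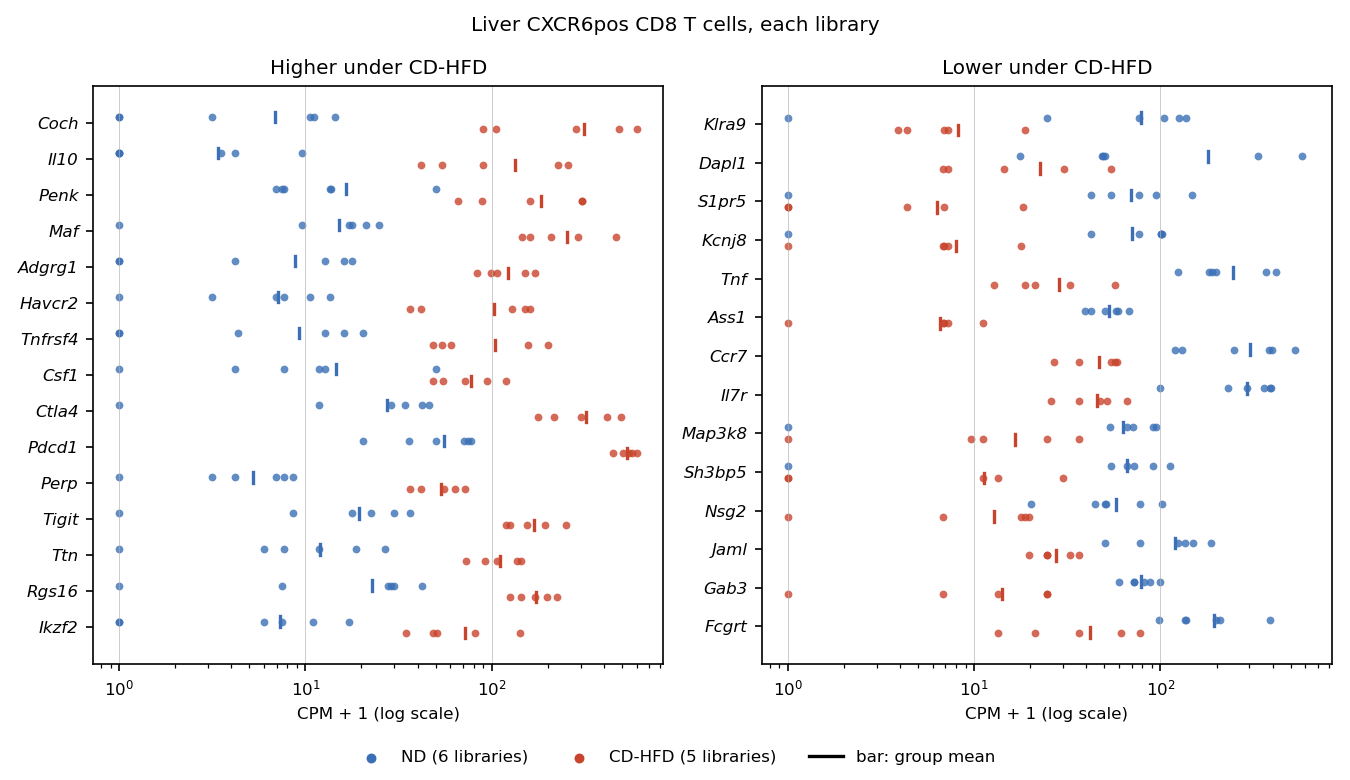
CPM + 1 on a log axis in each of the 6 ND (blue) and 5 CD-HFD (red) libraries for 15 genes with the largest rises (left) and 14 with the largest falls (right) among calls that held without each library, with a vertical bar at the mean of each group. Pdcd1 lies between 446 and 601 CPM in CD-HFD and at or below 76.9 in ND, and Tnf between 11.8 and 56.0 against 124 or more.

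The promoters of 3 genes that rose are shown because they hold motifs of 2 families of factors that act in activated T cells and are among the lists below. These are the AP-1 motif TGANTCA, bound by FOS, JUN and BATF proteins, and the NF-kB motif GGG, any 2 bases, then TTTCC, both searched on either strand. Each sequence is the 250 bases before the start site in RefSeq (GRCm38.p6), read 5′ to 3′ on the gene's strand, with the motifs in capitals. Havcr2 (chr11:46454681-46454930, plus strand) has 1 AP-1 match whose first base lies 200 bases before the start. Tnfrsf9 (chr4:150927749-150927998, plus strand) has an NF-kB match at 43 bases and an AP-1 match at 15 bases. Csf1 (chr3:107760470-107760719, minus strand) has 1 NF-kB match at 154 bases.
Havcr2: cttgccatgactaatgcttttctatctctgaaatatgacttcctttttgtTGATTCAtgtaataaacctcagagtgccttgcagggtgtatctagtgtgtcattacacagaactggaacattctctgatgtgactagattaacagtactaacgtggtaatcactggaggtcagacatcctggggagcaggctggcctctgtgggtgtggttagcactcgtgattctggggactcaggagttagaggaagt
Tnfrsf9: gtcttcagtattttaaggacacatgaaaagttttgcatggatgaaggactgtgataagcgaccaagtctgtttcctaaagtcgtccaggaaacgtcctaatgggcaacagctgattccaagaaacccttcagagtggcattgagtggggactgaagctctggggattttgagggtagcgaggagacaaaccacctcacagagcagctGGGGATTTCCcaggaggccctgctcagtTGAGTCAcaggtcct
Csf1: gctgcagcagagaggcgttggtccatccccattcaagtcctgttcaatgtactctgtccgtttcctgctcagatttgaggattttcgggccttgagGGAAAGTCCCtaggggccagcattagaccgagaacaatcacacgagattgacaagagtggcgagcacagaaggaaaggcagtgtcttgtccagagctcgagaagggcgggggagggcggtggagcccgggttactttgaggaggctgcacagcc

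A motif match describes these letters and is not evidence of binding. AP-1 was in 8.60% of the 221 genes that rose and have a promoter in the table, in 7.12% of the 281 that fell, in 5.33% of the 4577 tested and in 7.82% of all 27025. The NF-kB motif was in 4.07%, 1.78%, 1.62% and 1.65% of the same sets. These 2 were picked after the values were known from 12 motifs searched, the others being GTAAACA (forkhead), TGACGTCA (CREB), GGAAATCCC (NF-kB subunits), TGTGGTTT (RUNX), CCACACCC and ACACCC (KLF), TGGAAA (NFAT), AAAGGTCA (NR4A) and the CArG box in 2 spellings. ACACCC lies within CCACACCC. Other motifs also had a larger share among the rises than among the tested genes, such as TGGAAA (24.4% and 17.7%), ACACCC (21.7% and 15.8%) and AAAGGTCA (2.71% and 1.18%). TGACGTCA (2.26% and 3.43%), GTAAACA (2.71% and 2.75%) and the CArG boxes (0% of the rises) did not. The promoter table is incomplete, and 10 of the 15 genes with the largest rise have an entry. Of these 10, AP-1 was in 2 (Havcr2 and Adgrg1) and the NF-kB motif in 1 (Csf1). Tnfrsf9 is not among the 15.

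Transcription factors of effector, resident and exhausted T cells changed as a group with more rises than falls. Of 22 tested, 13 rose and 3 fell (median 0.83), and 11 of the 13 rises and all 3 falls held without each library. Tox was at 573, 405, 411, 387 and 371 CPM in CD-HFD and between 0 and 118 in ND (median 90.6; 2.40 ± 0.23, adjusted p = 9.32e-10). Maf, which codes for c-MAF, a regulator of Il10, was at 207, 145, 461, 289 and 159 CPM against 0 to 23.7 (median 16.4; 4.0 ± 0.45, adjusted p = 1.98e-07). Neither gene overlapped between diets. Batf, an AP-1 partner, was at 284, 267, 442, 418 and 301 CPM against 40.3 to 124 (median 88.2; 1.97 ± 0.18, adjusted p = 1.08e-14). Prdm1 (BLIMP-1; 2.06 ± 0.31, adjusted p = 1.78e-07), Ikzf2 (Helios; 2.90 ± 0.46, adjusted p = 6.87e-07) and Bhlhe40, a regulator of resident cells (1.31 ± 0.13, adjusted p = 1.39e-13), also rose without overlap. Nr4a2, an orphan nuclear receptor of T cell receptor signalling, rose from 143 ± 71.2 to 410 ± 59.2 CPM (1.47 ± 0.21, adjusted p = 2.27e-06). Its relative Nr4a1 fell from 576 ± 160 to 285 ± 97.8 CPM, with overlap (-1.07 ± 0.21, adjusted p = 0.000586), a call lost when a liver CXCR6neg library identical to a spleen library was kept in the fit (adjusted p = 0.0945). The T-box pair went apart as well. Eomes rose (72.5 ± 45.5 to 151 ± 25 CPM; 1.42 ± 0.26, adjusted p = 4.51e-05), whereas Tbx21, which codes for T-bet, fell (269 ± 70.3 to 177 ± 64.1 CPM; -0.82 ± 0.16, adjusted p = 9.70e-05), both with overlap. Zeb2, a factor of short-lived effector cells, fell from 39.7 ± 32.6 to 11 ± 6.61 CPM (-2.46 ± 0.50, adjusted p = 0.00011). Its ND values ran from 0 to 95.6 CPM, the highest in ND replicate 6, and it held without that library. Among listed factors with too few counts to be tested, Zfp683 had 1 count over CD-HFD and 21 over ND. Its scaled ratio of ND to CD-HFD was 13.0 (95% exact interval 2.09 to 538). Tox2 went the other way, with 35 counts over CD-HFD and 2 over ND (ratio of CD-HFD to ND 28.2, interval 7.26 to 242).

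Genes of naive and stem-like T cells fell. Of 17 tested, 0 rose and 11 fell, with a median of -1.63, and 10 of the 11 held without each library. Tcf7 was at 35.4, 70.9, 31.1, 54.8 and 88.4 CPM in CD-HFD and between 170 and 295 in ND (median 229; -2.05 ± 0.20, adjusted p = 8.97e-15). Il7r, the receptor for the survival cytokine IL-7, was at 65.0, 50.6, 24.9, 46.2 and 35.4 CPM against 98.5 to 391 (median 323; -2.76 ± 0.24, adjusted p = 5.07e-13). Lef1, the partner factor of TCF1, fell from 157 ± 56.5 to 48.0 ± 20.2 CPM (-1.63 ± 0.31, adjusted p = 0.000244). The diets did not overlap in these 3 genes. Dapl1 and Nsg2, markers of naive cells whose function in T cells is little known, fell too (-3.93 ± 0.83, adjusted p = 0.0014, and -2.43 ± 0.51, adjusted p = 0.000629). Dapl1 was uneven in ND, at 576 and 332 CPM in replicates 5 and 6 and between 16.7 and 49.2 in replicates 1 to 4, which overlapped with the CD-HFD values of 5.77 to 53.1. When only these 2 groups were fitted, Dapl1 no longer passed (-3.86, adjusted p = 0.103). Id3, which maintains memory precursors, did not pass (-0.79, adjusted p = 0.337), nor did Foxo1 (-0.66, adjusted p = 0.369), Foxp1 (-0.62, adjusted p = 0.0739; 0.0108 without ND replicate 3 and 0.0385 without CD-HFD replicate 3) and Slamf6 (0.12, adjusted p = 0.906).

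Genes of egress from tissue fell, and those of retention moved both ways. Of 18 tested, 3 rose and 12 fell (median -0.82), and the 3 rises and 11 of the falls held without each library. Klf2 was at 703, 496, 598, 563 and 867 CPM in CD-HFD and between 1330 and 1910 in ND (median 1680; -1.45 ± 0.12, adjusted p = 2.66e-19). S1pr1, the receptor that draws T cells into blood and lymph, was at 47.3, 60.8, 80.9, 80.8 and 88.4 CPM against 148 to 355 (median 254; -2.0 ± 0.19, adjusted p = 7.22e-16). Neither overlapped. S1pr5, a related receptor of effector cells, fell from 68.2 ± 49.6 to 5.32 ± 7.15 CPM (-3.40 ± 0.45, adjusted p = 1.70e-08) and S1pr4 from 236 ± 99.2 to 177 ± 45.6 (-0.69 ± 0.15, adjusted p = 0.000308). Ccr7, the chemokine receptor for lymph nodes, fell by 2.79 ± 0.43 on the log2 scale (adjusted p = 2.52e-05), without overlap. Among retention genes, Cd69, which removes S1PR1 from the surface, fell from 441 ± 70.0 to 253 ± 57.7 CPM (-0.78 ± 0.14, adjusted p = 8.48e-06; 0.0504 with that identical library kept in the liver). Itga1, the CD49a chain of a collagen receptor on resident cells, fell from 67.6 ± 25.5 to 18.0 ± 10.8 CPM (-2.05 ± 0.45, adjusted p = 0.000349). The regulators of G protein signalling Rgs1 (464 ± 143 to 1270 ± 260 CPM; 1.48 ± 0.21, adjusted p = 9.83e-06) and Rgs16 (21.9 ± 15.5 to 171 ± 40.4; 2.92 ± 0.28, adjusted p = 1.92e-15) rose, and Rgs10 fell (108 ± 24.1 to 36.5 ± 2.54; -1.58 ± 0.24, adjusted p = 2.48e-07). Adgrg1, an adhesion G protein-coupled receptor of cytotoxic cells, was at 82.7, 97.9, 149, 170 and 106 CPM against 0 to 16.7 (median 7.52; 3.74 ± 0.39, adjusted p = 1.64e-13). Its groups were apart.

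Chemokine receptors and integrins were tested in smaller numbers. Of 9 receptor genes, 2 rose and 2 fell (median -0.07). Cx3cr1, the fractalkine receptor of effector cells, fell from 134 ± 44.3 to 35.8 ± 22.3 CPM with no overlap (-1.68 ± 0.29, adjusted p = 5.72e-06). Cxcr3 (-0.07, adjusted p = 0.846), Ccr2 (-0.60, adjusted p = 0.191) and Cxcr4 (0.91, adjusted p = 0.112) did not pass. Of 6 integrin chains, 3 fell and 0 rose. Beside Itga1 they were the beta chains Itgb7 (474 ± 172 to 186 ± 68.8 CPM; -1.59 ± 0.20, adjusted p = 4.64e-07) and Itgb1 (233 ± 94.3 to 120 ± 21.8; -1.10 ± 0.17, adjusted p = 6.35e-07).

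Ligands that T cells secrete moved in both directions. Ccl5 (chromosome 11, 83525778 to 83530518, minus strand, GRCm38), which codes for the chemokine RANTES, was at 44500, 42500, 55100, 49400 and 52700 CPM in CD-HFD and between 19600 and 28200 in ND (median 23200; 1.05 ± 0.10, adjusted p = 6.01e-14). Every CD-HFD library lay above every ND library. Xcl1, which attracts cross-presenting dendritic cells, was at 47.3, 70.9, 80.9, 124 and 106 CPM against 148 to 598 (median 258; -2.0 ± 0.32, adjusted p = 4.81e-05). Ccl3 (-0.07, adjusted p = 0.938) and Ccl4 (0.19, adjusted p = 0.766) did not pass.

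Among 13 cytokine and TNF family ligand genes, 4 rose and 4 fell (median 0.10), and 3 of each held without each library. Tnf (chromosome 17) was at 11.8, 20.3, 56.0, 31.7 and 17.7 CPM in CD-HFD and between 124 and 414 in ND (median 193; -3.16 ± 0.40, adjusted p = 1.20e-06). Il10 (chromosome 1, 131019845 to 131024974, plus strand), an anti-inflammatory cytokine, was at 53.2, 40.5, 255, 225 and 88.4 CPM against 0 to 8.63 (median 1.26; 5.12 ± 0.66, adjusted p = 1.22e-06). The 2 genes moved in opposite directions, each without overlap. Csf1, the growth factor of macrophages, was at 47.3, 54.0, 93.4, 118 and 70.7 CPM against 0 to 49.2 (median 8.73; 3.49 ± 0.52, adjusted p = 7.30e-08), where the 49.2 is the single count of ND replicate 1. Penk, the precursor of the enkephalins, was at 65.0, 87.8, 305, 303 and 159 CPM against 5.92 to 49.2 (median 9.63; 4.24 ± 0.52, adjusted p = 8.37e-07). Tnfsf14 (LIGHT; -1.84 ± 0.39, adjusted p = 0.000168) and Tnfsf8 (CD30 ligand; -1.82 ± 0.41, adjusted p = 0.000432) fell. Ifng fell from 291 ± 145 to 200 ± 49.2 CPM (-0.70 ± 0.20, adjusted p = 0.016), a call lost without CD-HFD replicate 2 (adjusted p = 0.0865), by DESeq2 (0.0527) and with the identical library kept in the liver (0.249). Fasl, which triggers death through CD95, did not pass (0.25, adjusted p = 0.275).

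Genes of cytotoxic granule proteins rose more often than they fell. Of 18 tested, 8 rose and 2 fell (median 0.50), and 4 of the rises held without each library. Without ND replicate 6, 6 rose and 2 fell. Gzmk, granzyme K, was at 1140, 975, 1070, 949 and 884 CPM in CD-HFD and between 143 and 397 in ND (median 251; 2.02 ± 0.30, adjusted p = 1.60e-05), with no overlap. Gzmm, granzyme M, fell from 111 ± 57.7 to 36.5 ± 31.6 CPM, with overlap (-2.11 ± 0.44, adjusted p = 0.00114). Gzma (0.43, adjusted p = 0.544) and Gzmb (0.57, adjusted p = 0.285) did not pass, so the granzymes did not move as a block. Nkg7, a granule membrane protein, rose from 4320 ± 692 to 8090 ± 509 CPM without overlap (0.88 ± 0.10, adjusted p = 5.67e-13). Prf1, which codes for perforin, rose from 207 ± 49.3 to 385 ± 121 (0.75 ± 0.14, adjusted p = 3.33e-05).

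Killer lectin-like receptors, which NK cells and memory CD8 T cells use to sense MHC class I and stress ligands, fell. Of 13 tested, 0 rose and 8 fell, with a median of -1.69, and 7 of the 8 held without each library. Klra9, a Ly49 receptor, was at 5.91, 3.38, 6.22, 2.89 and 17.7 CPM in CD-HFD and between 0 and 137 in ND (median 89.3; -4.18 ± 0.48, adjusted p = 2.06e-11). The 0 was the shallow ND replicate 1, and without it the groups were apart. Klrk1 (NKG2D) was at 65.0, 179, 181, 254 and 265 CPM against 435 to 631 (median 510; -1.52 ± 0.22, adjusted p = 1.09e-05). Klrc1 (NKG2A) was at 17.7, 43.9, 74.7, 72.1 and 17.7 CPM against 146 to 337 (median 194; -2.01 ± 0.33, adjusted p = 5.41e-05). Neither overlapped. Klrd1 (CD94), the partner chain of NKG2A, changed less (286 ± 27.9 to 178 ± 83.7 CPM; -0.72 ± 0.16, adjusted p = 0.0006), and Klrb1c (NK1.1) fell (-2.09 ± 0.47, adjusted p = 0.000577). Klrg1, a marker of terminal effectors, did not pass (-1.34, adjusted p = 0.112), but did when only these 2 groups were fitted (-1.32, adjusted p = 0.000658). Members of the Klra family are near-identical copies that share reads, so values of single members are uncertain. Beside these falls, the adaptor genes Tyrobp and Fcer1g, which NK and myeloid cells use, were at 284 and 98.1 CPM in ND replicate 6, and their calls were lost without that library among others (highest adjusted p = 0.323 and 0.321), whereas the lectin receptor count stayed at 8 lower of 13.

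Of 9 listed markers of CD4 and regulatory T cells, 4 were tested and all 4 rose (median 3.19), Ctla4, Tnfrsf4, Ikzf2 and Izumo1r, which CD8 T cells can also express. The untested Cd4 and Foxp3 were at or near 0 as given above. Izumo1r, a folate receptor relative, was at 82.7, 87.8, 80.9, 101 and 106 CPM against 12.6 to 49.2 (median 23.5; 2.25 ± 0.34, adjusted p = 2.66e-07), with the groups apart.

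Of 12 listed genes of gamma-delta, NKT and MAIT cells, 4 were tested, of which 2 rose and 2 fell (median -0.18). Which cells in these samples carried their transcripts was not tested. Trdc, the constant gene of the delta chain, had 108 counts over the ND libraries (49.2, 0, 141, 170, 12.9 and 15.1 CPM in replicates 1 to 6) and 2 over CD-HFD. The ratio scaled for library totals was 33.5 (95% exact interval 9.04 to 280). Most of its counts came from ND replicates 3 and 4. The gamma constant genes split, with Tcrg-C4 (65.2 ± 65.7 to 172 ± 49.9 CPM; 2.12 ± 0.27, adjusted p = 1.63e-09) and Tcrg-C2 (198 ± 83.6 to 549 ± 376; 1.59 ± 0.34, adjusted p = 0.00176; 0.0726 when only these 2 groups were fitted) higher, and Tcrg-C1 lower (-1.95 ± 0.55, adjusted p = 0.010; adjusted p = 0.101 without CD-HFD replicate 4). Tcrg-C2 was at 957 and 948 CPM in CD-HFD replicates 1 and 2 and at 330, 349 and 159 in replicates 3 to 5. These near-identical genes also share reads.

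**Figure D4:**
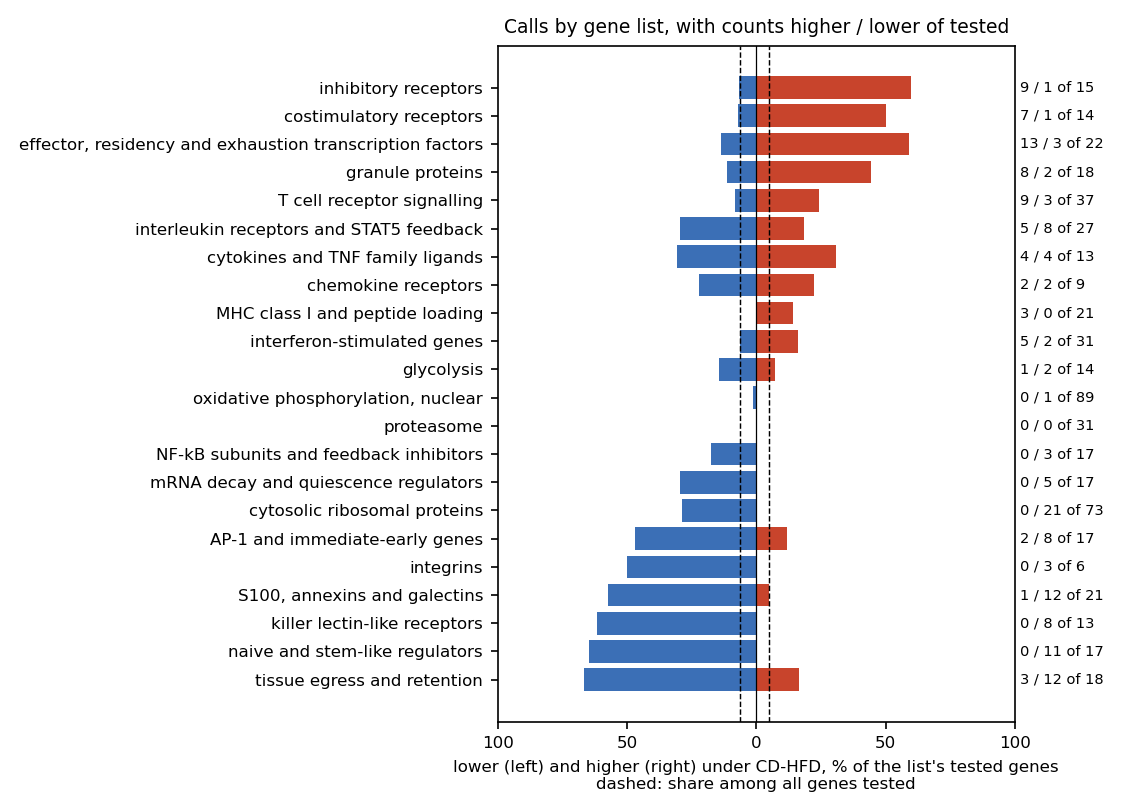
For 22 gene lists, the percentage of tested genes that rose (red, right) or fell (blue, left) under CD-HFD, with the counts at the right margin and the shares over all genes (4.84% and 6.45%) as dashed lines. Inhibitory receptors stand at 9 higher and 1 lower of 15, and naive and stem-like regulators at 0 higher and 11 lower of 17.

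Parts of the T cell receptor machinery rose. Of 37 tested, 9 rose and 3 fell (median 0.20), and all 9 rises and 2 of the falls held without each library. Sh2d2a (TSAd), an adaptor of the kinase LCK, was at 1540, 1310, 1060, 1210 and 831 CPM against 345 to 645 (median 462; 1.38 ± 0.12, adjusted p = 2.04e-18). Fyn, a Src family kinase, was at 1520, 1290, 1170, 840 and 1010 CPM against 457 to 746 (median 505; 1.07 ± 0.15, adjusted p = 6.87e-07). Both lay above ND in every library. Sh2d1a (SAP; 1.37 ± 0.18, adjusted p = 6.86e-08), Cd3g (0.69 ± 0.10, adjusted p = 1.36e-07), the kinase gene Zap70 (0.65 ± 0.13, adjusted p = 0.000106) and the adaptor gene Lat (0.44 ± 0.10, adjusted p = 0.000869) rose. So did Cblb, a ubiquitin ligase that restrains the pathway (54.1 ± 7.4 to 129 ± 30.8 CPM; 1.19 ± 0.23, adjusted p = 4.51e-05). The phosphatase gene Ptpn6 (SHP-1) fell from 333 ± 26.0 to 184 ± 52.3 CPM without overlap (-0.84 ± 0.15, adjusted p = 1.53e-05). Lck (0.03, adjusted p = 0.906) and Cd3d (0.15, adjusted p = 0.384) did not pass.

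Immediate-early genes, which T cells transcribe within minutes of a stimulus, fell more often than they rose. Of 17 tested, 8 fell and 2 rose (median -0.51), and 7 of the falls held without each library. Fos was at 165, 162, 218, 156 and 212 CPM in CD-HFD and between 369 and 842 in ND (median 578; -1.76 ± 0.20, adjusted p = 2.31e-08). Jun was at 278, 273, 224, 138 and 177 CPM against 459 to 1010 (median 606; -1.70 ± 0.21, adjusted p = 3.58e-07). The groups were apart in both. Ier3, an early gene that limits cell death, went the other way without overlap (84.6 ± 21.2 to 338 ± 96.7 CPM; 2.01 ± 0.27, adjusted p = 2.56e-06). Junb (-0.20, adjusted p = 0.263), Fosl2 (-0.47, adjusted p = 0.297) and Klf6 (-0.30, adjusted p = 0.087) did not pass, although Klf6 did without ND replicate 1 (adjusted p = 0.0213) or 6 (0.0479). Dusp1, a phosphatase that turns off MAP kinases, rose from 802 ± 227 to 1430 ± 265 CPM (0.82 ± 0.18, adjusted p = 0.00243), the only one of 6 tested members of its family to pass. The call was lost when the liver CXCR6neg library with an identical spleen column was kept in the fit (adjusted p = 0.161).

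Of 17 NF-kB subunits and feedback inhibitors, 3 fell and 0 rose (median -0.14). The inhibitors Nfkbia (522 ± 97.0 to 304 ± 93.1 CPM; -0.75 ± 0.13, adjusted p = 4.11e-06) and Nfkbid (225 ± 99.4 to 86.6 ± 39.6; -1.30 ± 0.24, adjusted p = 0.000139) fell, and the subunits Nfkb1 (0.50, adjusted p = 0.565), Rel (-0.80, adjusted p = 0.127) and Rela (-0.04, adjusted p = 0.933) did not pass. Of 17 regulators of mRNA decay and quiescence, 5 fell and 0 rose (median -0.13). Zfp36, which codes for tristetraprolin, a protein that destabilizes cytokine mRNAs, fell from 391 ± 132 to 186 ± 10.5 CPM (-1.20 ± 0.14, adjusted p = 6.75e-12), and its relative Zfp36l1 from 292 ± 28.8 to 144 ± 28.6 (-0.95 ± 0.15, adjusted p = 2.33e-07). Cdkn2d, an inhibitor of the cell cycle, fell as well (-1.11 ± 0.17, adjusted p = 2.92e-07).

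Interleukin receptors and their signalling genes shifted in composition. Of 27 tested, 5 rose and 8 fell (median -0.19), and 4 and 6 of these held without each library. The genes of both chains of the IL-18 receptor fell, Il18r1 from 92.0 ± 28.8 to 23.4 ± 10.8 CPM (-1.97 ± 0.31, adjusted p = 5.73e-07) and Il18rap from 71.4 ± 35.8 to 20.8 ± 14 (-2.10 ± 0.34, adjusted p = 6.68e-07). Il10ra, the receptor for IL-10, was at 260, 243, 255, 193 and 248 CPM against 75.5 to 107 (median 97.4; 1.37 ± 0.19, adjusted p = 4.41e-09), and Il21r rose from 210 ± 32.5 to 353 ± 47.8 (0.71 ± 0.14, adjusted p = 4.81e-05). Neither overlapped. Il2rb, the chain shared by the receptors of IL-2 and IL-15, rose (716 ± 176 to 1040 ± 162 CPM; 0.47 ± 0.11, adjusted p = 0.000823), while the common gamma chain Il2rg fell (1180 ± 203 to 842 ± 82.3; -0.52 ± 0.11, adjusted p = 0.000176). Stat3, which signals for IL-10 and IL-21, rose (1.04 ± 0.17, adjusted p = 6.63e-07), and Ifngr1 fell (-0.71 ± 0.12, adjusted p = 4.79e-06). Il15ra did not pass (0.52, adjusted p = 0.439).

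Genes that handle extracellular nucleotides and acetate split, with 3 of 12 higher and 3 lower (median -0.07). Nt5e (CD73), which makes adenosine, had 1 count over the CD-HFD libraries and 59 over ND, opposite to the rises of Entpd1 and Cd38 above. Its ratio scaled for library totals was 36.6 (95% exact interval 6.31 to 1470). Acss2, which turns acetate into acetyl-CoA, fell from 64.1 ± 33.3 to 22 ± 8.69 CPM (-1.76 ± 0.31, adjusted p = 6.84e-06).

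Genes of the cytoskeleton and of membrane binding fell in number. Of 21 S100, annexin, galectin and related genes, 12 fell and 1 rose (median -0.51), and 8 of the falls held without each library. Vim (vimentin) was at 284, 307, 274, 268 and 230 CPM against 394 to 1210 (median 679; -1.48 ± 0.17, adjusted p = 1.80e-08). Tagln2 (transgelin-2) was at 207, 263, 261, 260 and 265 CPM against 394 to 800 (median 540; -1.27 ± 0.13, adjusted p = 5.32e-14). Neither overlapped. Lgals3 (galectin-3; -1.47 ± 0.32, adjusted p = 0.00199), Lgals1 (galectin-1; -0.94 ± 0.20, adjusted p = 0.00131; 0.052 when only these 2 groups were fitted) and Ahnak (-1.03 ± 0.13, adjusted p = 3.94e-09) fell with overlap, and S100a11 was the one that rose (0.81 ± 0.13, adjusted p = 4.59e-07). Of 5 Ly6 family genes, 3 fell and 0 rose. Ly6c2 (chromosome 15, 75108158 to 75111970, minus strand), a surface antigen of memory and effector CD8 T cells, was at 602, 574, 479, 488 and 707 CPM against 1890 to 3430 (median 2180; -2.14 ± 0.12, adjusted p = 1.70e-30).

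Metabolic and housekeeping lists differed from each other. Of 89 nuclear genes of oxidative phosphorylation, 0 rose and 1 fell (median 0.02), and of 31 proteasome genes 0 rose and 0 fell (median 0.04). Of 14 glycolysis genes, 1 rose and 2 fell, none of which held without each library. Of 16 fatty acid and cholesterol genes, 2 rose, and Acadl, a dehydrogenase of beta-oxidation, held without each library (65.6 ± 13.1 to 129 ± 28.3 CPM; 0.94 ± 0.21, adjusted p = 0.000487). Of 20 genes of the endoplasmic reticulum stress response, 1 rose and 1 fell, neither of which held. Cytosolic ribosomal protein genes fell in 21 of 73 cases and rose in 0 (median -0.30), and 10 of them held without each library. The count was 15 without ND replicate 6, 15 without the 3 ND libraries low in Cxcr6 and 34 when libraries were scaled by total counts alone. Rps19 (-0.69 ± 0.11, adjusted p = 4.77e-07) and Rps18 (-0.62 ± 0.10, adjusted p = 1.08e-06) fell without overlap. Of 8 mitochondrially encoded genes, 3 fell and 0 rose (median -0.30), 1 of which held without each library. The count was 5 with total counts or without the shallow libraries, 2 without ND replicate 6 and 1 without the 3 ND libraries low in Cxcr6. Among them mt-Co1, a subunit of cytochrome c oxidase, fell from 789 ± 89.2 to 488 ± 86.2 CPM (-0.66 ± 0.11, adjusted p = 4.11e-06).

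Proliferation genes had 1 rise and 1 fall of 18 tested (median 0.18). Tyms, thymidylate synthase, rose from 17.5 ± 10.8 to 51.6 ± 12.3 CPM (1.30 ± 0.36, adjusted p = 0.00617), and Top2a did not pass (1.08, adjusted p = 0.165). Of 12 BCL2 family genes, 2 rose, the survival genes Bcl2a1d (1.25 ± 0.26, adjusted p = 0.000136) and Bcl2a1b (0.78 ± 0.22, adjusted p = 0.00942; 0.0636 without the 3 ND libraries low in Cxcr6), copies that share reads, while Bcl2 (-0.03, adjusted p = 0.934) and Bcl2l11 (0.28, adjusted p = 0.756) did not pass. Of 31 interferon-stimulated genes, 5 rose and 2 fell (median 0.09), and 3 rose without the 3 ND libraries low in Cxcr6. Ifi27l2a was at 319, 402, 510, 441 and 442 CPM against 66.9 to 167 (median 124; 1.74 ± 0.30, adjusted p = 0.00014), whereas Irf7 (-0.28, adjusted p = 0.377) and Ifit3 (-0.15, adjusted p = 0.849) did not pass. Of 21 genes of MHC class I and peptide loading, 3 rose and 0 fell (median 0.14), and 1 rose without the 3 ND libraries low in Cxcr6. Of 16 heat-shock genes, 1 fell. Hspa1a was at 492, 503, 520 and 621 CPM in ND replicates 1 to 4 and at 106 and 108 in ND replicates 5 and 6, and the CD-HFD libraries lay between 35.4 and 118 (-2.15 ± 0.49, adjusted p = 0.00276). It did not pass when only these 2 groups were fitted (-2.17, adjusted p = 0.081).

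Further genes with large changes lay outside these lists. Coch (chromosome 12, 51593341 to 51605771, plus strand), which codes for the secreted protein cochlin, was at 88.6, 105, 604, 479 and 283 CPM in CD-HFD and between 0 and 13.4 in ND (median 5.90; 5.36 ± 0.64, adjusted p = 5.28e-07). No library of one diet entered the range of the other, although CD-HFD replicates 1 and 2 were well below the other three. Perp, a membrane protein induced by p53, rose without overlap (3.38 ± 0.55, adjusted p = 9.88e-07). Among falls, Kcnj8, a potassium channel subunit (-3.23 ± 0.40, adjusted p = 1.92e-10), Ass1, which makes argininosuccinate for arginine synthesis (-2.93 ± 0.44, adjusted p = 1.36e-07), and Jaml, an adhesion molecule (-2.38 ± 0.27, adjusted p = 6.51e-12), were among the largest. Gab3, a docking protein of cytokine receptors (-2.33 ± 0.36, adjusted p = 2.30e-07), and Fcgrt, the neonatal Fc receptor (-2.32 ± 0.46, adjusted p = 0.000743), fell without overlap.

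Some genes were chosen after their values were seen. Glrx, glutaredoxin, rose from 74.1 ± 19.0 to 346 ± 170 CPM (2.24 ± 0.28, adjusted p = 1.01e-06). Lax1, an adaptor that dampens antigen receptor signals (1.75 ± 0.21, adjusted p = 1.70e-08), the scramblase gene Plscr1 (2.36 ± 0.35, adjusted p = 1.28e-07) and the repressor gene Trps1 (2.64 ± 0.37, adjusted p = 1.20e-08) rose as well. Aqp9, a glycerol channel of memory CD8 T cells, had 1 count over the CD-HFD libraries and 61 over ND. Its ratio scaled for library totals was 37.8 (95% exact interval 6.53 to 1520). The kinase gene Pim1, a target of IL-7 signalling, fell from 155 ± 20 to 59.1 ± 7.24 CPM (-1.32 ± 0.22, adjusted p = 2.65e-06). Tmsb10, which codes for the actin-binding thymosin beta-10, fell from 5280 ± 793 to 2880 ± 361 CPM (-0.89 ± 0.10, adjusted p = 1.60e-12). None of these 3 falls overlapped between diets.

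The diet effect was set against the same effect in liver CXCR6neg cells, which come from the same organ. There, with 6 CD-HFD and only 4 ND libraries, 29 genes passed (0.47% of 6174), 18 higher and 11 lower. Of these 29, 25 were also among the 697 diet calls in CXCR6pos. An unadjusted p under 0.05 was found in 524. The difference between the 2 effects, tested as an interaction, passed in 89 genes (1.44%), with 27 more positive and 62 more negative in CXCR6pos. Of the 697 diet calls in CXCR6pos, 85 passed this interaction, 24 rises and 61 falls. For the rest a difference from CXCR6neg was not shown. Il7r had the firmest difference among the genes named here. It fell from 291 ± 113 to 44.4 ± 15.2 CPM in CXCR6pos and was at 364 ± 94.0 and 276 ± 42.3 in CXCR6neg (interaction -2.38 ± 0.31, adjusted p = 4.83e-07). Gab3 was at 59.8 ± 18.9 CPM in ND and 59.5 ± 23.5 in CD-HFD of CXCR6neg (interaction -2.36 ± 0.46, adjusted p = 0.000641). Ccr7 (-2.28 ± 0.53, adjusted p = 0.0231) and Klra9 (-2.68 ± 0.71, adjusted p = 0.0251) differed too. Ccr7 was lost without CD-HFD CXCR6pos replicate 4 (adjusted p = 0.0875), and Klra9 without replicate 2 or 4 (adjusted p = 0.0782 and 0.0923). Neither passed when only the groups compared were fitted (adjusted p = 0.0618 and 0.0598). Ccr7 was also lost without the filter (0.056) and without the 3 ND libraries low in Cxcr6 (0.0938). Plac8, which plasmacytoid dendritic cells also express, had an interaction of -2.79 ± 0.58 (adjusted p = 0.00822), with 226 CPM in ND replicate 6 and 49.2 to 84.1 in the other ND libraries. The Plac8 call was lost neither without ND replicate 6 nor without the 3 ND libraries low in Cxcr6.

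The 6 genes with the largest positive interaction were Chn2 (2.65 ± 0.73, adjusted p = 0.0377), Apoe (2.51 ± 0.62, adjusted p = 0.0241), Podnl1 (2.46 ± 0.68, adjusted p = 0.037), Susd3 (1.66 ± 0.46, adjusted p = 0.0476), Parg (1.63 ± 0.45, adjusted p = 0.0349) and Cd38 (1.59 ± 0.44, adjusted p = 0.0412). Each of the 6 calls was lost when 1 library or another was left out, with adjusted p-values up to 0.115 (Cd38 without ND CXCR6pos replicate 6). The interaction of Apoe, an apolipoprotein of hepatocytes and macrophages, fell to 1.65 without CD-HFD CXCR6pos replicate 2 (adjusted p = 0.114). The diet effect of Apoe in CXCR6pos did not pass (0.48 ± 0.35, adjusted p = 0.490), but did without CD-HFD CXCR6pos replicate 4 (0.85, adjusted p = 0.0449). In CXCR6neg it was -2.03, so the interaction came mostly from a fall there.

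Against spleen CX3CR1neg cells, the interaction passed in 246 genes (3.98%), 75 more positive and 171 more negative in CXCR6pos. Of the 697 diet calls, 241 passed this interaction. In the spleen itself (6 CD-HFD and 5 ND libraries) 2 genes passed (0.0324%), 1 higher and 1 lower by edgeR, with 274 at an unadjusted p under 0.05. Ctla4 was at 12.5 ± 5.86 CPM in ND spleen and 11.8 ± 12.2 in CD-HFD spleen (interaction 3.52 ± 0.81, adjusted p = 0.00793). Havcr2 (3.08 ± 0.74, adjusted p = 0.00539), Prdm1 (2.43 ± 0.56, adjusted p = 0.00254) and Dapk2, a death-associated kinase (1.93 ± 0.43, adjusted p = 0.00154), followed. Pdcd1 was at 16.5 ± 4.53 CPM in ND spleen and 50.4 ± 25.6 in CD-HFD spleen, which did not pass (adjusted p = 0.444), and its interaction did (1.95 ± 0.52, adjusted p = 0.0233). That call was lost when only the groups compared were fitted (adjusted p = 0.0757) and without the 3 ND libraries low in Cxcr6 (0.0588). Ikzf2 (2.32 ± 0.63, adjusted p = 0.0161) was lost without CD-HFD CXCR6pos replicate 4 (adjusted p = 0.0635) or the 3 ND libraries low in Cxcr6 (0.0933). Against CXCR6neg, the interactions of Ctla4, Havcr2, Pdcd1 and Ikzf2 did not pass. Of the 15 inhibitory receptors tested, only Cd38 passed there. Their median diet effect was 0.45 in CXCR6neg and 1.38 in CXCR6pos. Of the 4 markers of CD4 and regulatory T cells, 0 passed there, with a median of 1.98 in CXCR6neg. Tnf was low in both spleen groups, at 14.8 ± 9.98 and 13.7 ± 9.84 CPM (interaction -3.44 ± 0.73, adjusted p = 0.00477). S1pr5 was at 46.6 ± 6.43 and 41.2 ± 12.5 CPM in the spleen (-3.32 ± 0.54, adjusted p = 1.89e-05), Ass1 at 39.6 ± 2.87 and 33.1 ± 14.5 (-2.81 ± 0.52, adjusted p = 9.60e-05) and Klra9 at 24.2 ± 3.32 and 16.6 ± 6.27 (-3.65 ± 0.65, adjusted p = 6.40e-05). Tdrp, whose role in T cells is little known, had 1 count over the CD-HFD CXCR6pos libraries and 65 over ND, and was at 51.4 ± 8.58 and 37.5 ± 11.1 CPM in the spleen (adjusted p = 9.22e-05 for the interaction). Dapl1 (-4.00 ± 0.97, adjusted p = 0.0143) was lost without CD-HFD CXCR6pos replicate 4 (adjusted p = 0.0578) and when only the groups compared were fitted (0.053).

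**Figure D5:**
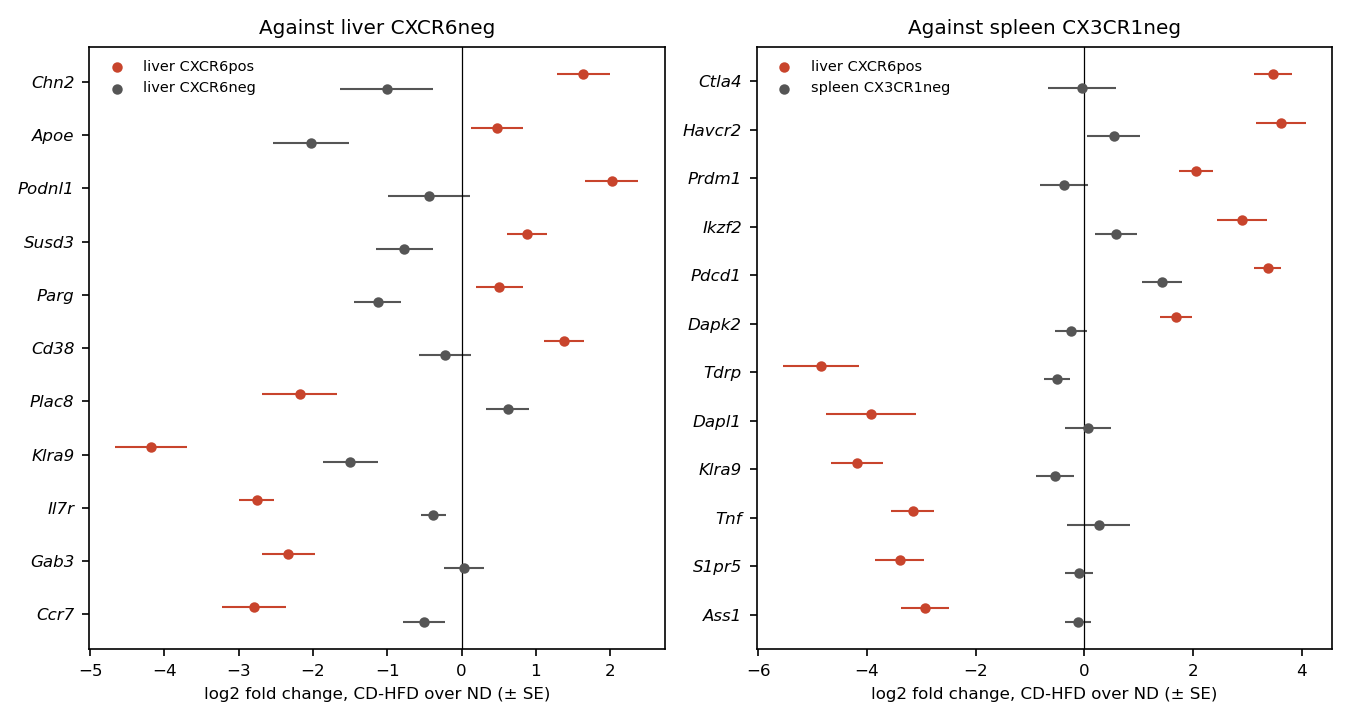
Log2 fold change of CD-HFD over ND with its SE for the genes with the largest interactions, in liver CXCR6pos (red) beside liver CXCR6neg (grey, left panel) and beside spleen CX3CR1neg (grey, right panel). Il7r lies at -2.76 in CXCR6pos and -0.38 in CXCR6neg, and Ctla4 at 3.47 in CXCR6pos and -0.04 in the spleen.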

How the data were processed

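The deposited table holds whole-number counts per gene for each library, which the authors made from 3′ reads of polyadenylated RNA. The build GRCm38.p6 and DESeq2 1.14.1 are named per the submitters' processing notes, with no role given. The aligner is not given in the sources used here, nor is it known whether the molecular identifiers of the labels' protocols were collapsed. 1 column matched no sample and was not used, and CD-HFD CXCR6pos replicate 6 was not analysed here. ND CXCR6neg replicate 1 had the same value as ND spleen replicate 6 in each of 22865 genes, so both were left out.

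The 32 libraries of 6 groups (15633 to 978896 counts) were fitted together in edgeR 4.0.16 (R 4.3.3) with filterByExpr, TMM scaling and the quasi-likelihood test, two-sided. Of 22865 genes 6174 were tested, Benjamini-Hochberg adjusted p-values under 0.05 passed, and the common dispersion was 0.0149. SEs were derived from the fold change and the F statistic. Ratios of few counts were scaled by the TMM-adjusted library totals of each group. Their intervals (95%, exact) cover counting error only. Gene positions are from GENCODE M21 (GRCm38).

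Genes named are up to 15 per direction with the largest change, reaching 50 CPM or more on average in the higher group, with a call that held without each of the 11 libraries, members of 49 lists, the 6 largest interactions per direction, and Cxcr6, Cx3cr1, Cd8a, Cd8b1 and Cd3e. The comparison and the lists were chosen with earlier results of these data known. Some genes under these rules are not reported here. Alternatives were other scalings, no filter, DESeq2 1.42.0, fits of the compared groups alone, a replicate block, the identical library kept, and leaving out single or shallow libraries.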

Additional observations from a re-analysis of the deposited data

Results flagged for a closer look

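Of 96 sets of values of a gene or marker sum in 1 group, 11 had a library far from the others. For evenly scattered values the rule picks about 1 in 20 by chance, a rate not established for values that rest on single counts, such as those of Penk and Csf1 in ND replicate 1 and the neutrophil sums. In ND, Il10 was at 8.63 CPM in replicate 5 and at 0 to 3.21 in the others, Penk at 49.2 in replicate 1 and 5.92 to 12.8 in the others, and Csf1 at 49.2 in replicate 1 and 0 to 11.8 in the others. Cd8a was at 739 CPM in ND replicate 1, the shallowest library, and between 1370 and 1680 in the others. The TMM factor of that library (1.371) lowers its CPM values. Klra9 was at 17.7 CPM in the shallow CD-HFD replicate 5 and between 2.89 and 6.22 in the others.

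Marker sums of other cells gave the remaining ones. ND replicate 6 held 2290 CPM of B cell markers (481 to 1030 in the others) and 1940 CPM of plasmacytoid dendritic cell markers (197 to 345). ND replicate 1 held 345 CPM of hepatocyte markers (89.9 to 172). Neutrophil markers were at 2.16 CPM in ND replicate 5 and 2.89 in CD-HFD replicate 4, with the other libraries at 0, and stellate cell markers at 11.8 CPM in CD-HFD replicate 1 (0 to 3.38).

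The diet effect differed from that in liver CXCR6neg cells, by the interaction test, in Chn2 (2.65 on the log2 scale), Apoe (2.51), Podnl1 (2.46), Susd3 (1.66), Parg (1.63), Cd38 (1.59), Plac8 (-2.79), Klra9 (-2.68), Il7r (-2.38), Gab3 (-2.36) and Ccr7 (-2.28). It differed from that in the spleen in Ctla4 (3.52), Havcr2 (3.08), Prdm1 (2.43), Ikzf2 (2.32), Pdcd1 (1.95), Dapk2 (1.93), Tdrp (-4.35), Dapl1 (-4.00), Klra9 (-3.65), Tnf (-3.44), S1pr5 (-3.32) and Ass1 (-2.81).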

How the results depend on the processing

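Depth limits low genes most, and the 2 shallow libraries (15633 and 57168 counts) can miss them. No named gene past the threshold in either fit reversed its direction under the alternatives run. The counts of 299 higher and 398 lower genes ran from 238 to 302 and from 312 to 430 when 1 CXCR6pos library was left out, and were 319 and 387 with RLE size factors, 293 and 440 with total counts, 268 and 430 without the filter, 260 and 325 with DESeq2 and 239 and 299 in the compared groups alone. The interaction with CXCR6neg (27 and 62) ran from 18 to 35 and from 49 to 77, and that with the spleen (75 and 171) from 51 to 82 and from 129 to 184.

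With a replicate block in the compared groups alone, 200 genes rose and 218 fell, and the interaction with CXCR6neg passed in 15 and 49 genes. There 12 of 73 ribosomal protein genes, 5 of 13 killer lectin-like receptors and 5 of 27 interleukin receptor genes fell, Klrd1 (adjusted p = 0.0618), S1pr4 (0.0516) and Tyms (0.0618) did not pass, and Gzmb did (0.000545). Between the diets, deviations of same-numbered CXCR6pos libraries correlated between 0.0052 and 0.149 over 5 pairs. Of 5 CD-HFD libraries, 2 correlated best with their own number. Whether libraries of the same number in different fractions came from the same mice was not tested. Without the 3 ND libraries low in Cxcr6, an alternative chosen after seeing the data, the interaction with CXCR6neg passed in 16 genes in the positive direction, and 517 of the 697 diet calls remained. The cause of these shifts was not tested.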

Other observations

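Libraries within a diet differed in some genes in the same pattern. Coch, Il10 and Penk were lower in CD-HFD replicates 1 and 2 than in replicates 3 to 5, with Coch at 88.6 and 105 CPM against 604, 479 and 283. Spp1, which codes for osteopontin, was at 0 and 0 CPM in replicates 1 and 2 and at 280, 286 and 106 in replicates 3 to 5. Its call was lost without CD-HFD replicate 4 (adjusted p = 0.0713). In ND, Hspa1a was at 106 and 108 CPM in replicates 5 and 6 against 492 to 621 in replicates 1 to 4, and Dapl1 at 576 and 332 against 16.7 to 49.2. Nacc2, a transcriptional repressor gene chosen after its values were seen, had 46 counts over the ND libraries and 0 over CD-HFD. Scaled for library totals, it was at least 9.5-fold lower against a floor of 3 counts over the group.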
